A study of Rattus norvegicus with 24 samples.

Results

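The genes described are those of adenosine and ATP signalling at the cell surface: the adenosine receptors Adora1, Adora2a, Adora2b and Adora3, the ATP-gated channels P2rx4 and P2rx7, the nucleotide receptors P2ry1 and P2ry2, and the ectonucleotidases Nt5e and Entpd1. They were chosen by name, and their probes were found by matching the array's transcript accessions to rat RefSeq transcripts. Of the 10 genes, 9 had a probe named in this way, 1 probe each, out of 12894 genes tested; Adora3 was not analysed here. Single-colour arrays were used to measure RNA from the myocardium of 24 rats, 4 rats in each of 6 groups, 2 females and 2 males per group. Rats of the Jiaji, Neiguan, Yanglingquan and Quchi groups had 7 days of acupuncture at the acupoint of that name (beside the spine, on the forearm, on the lower leg and at the elbow) and then a tie around the left anterior descending artery of the heart. The IRI group, named for myocardial ischaemia-reperfusion injury, had the ligation without acupuncture, and the sham group had neither. The sources used here give no strain, age, reperfusion time or time of tissue collection. Every comparison is between pieces of whole myocardium, so fewer cells of a type and less RNA per cell cannot be told apart.

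Injured and stressed cells release ATP, which acts on P2X channels and P2Y receptors as a danger signal. Entpd1 (CD39) on the cell surface removes phosphates from ATP and ADP to leave AMP, and Nt5e (CD73) turns the AMP into adenosine. Adenosine then acts through its receptors, of which the A1 type slows the heart and lowers cyclic AMP, the product of Adora2a widens coronary vessels and restrains leukocytes, and the product of Adora2b answers to high adenosine. This pathway is one of the classical mediators of cardiac preconditioning, in which an earlier stimulus makes heart muscle more tolerant of ischaemia.

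Promoter sequence was available for 9 of the 10 genes from RefSeq (rat assembly GRCr8), as the 250 bases before to 50 bases after each gene's start; Adora2a is the one without. The windows of Entpd1, Nt5e and Adora2b are shown because these genes form one route, from ATP through AMP to adenosine and its receptor, and each was lower than sham in at least 1 acupoint group below. Capitals mark GGGCGG, the core of the binding motif of the transcription factor Sp1, on either strand. Entpd1 is at chr1:249422614-249422913, Nt5e at chr8:98150675-98150974 and Adora2b at chr10:47439462-47439761, all on the plus strand.
Entpd1: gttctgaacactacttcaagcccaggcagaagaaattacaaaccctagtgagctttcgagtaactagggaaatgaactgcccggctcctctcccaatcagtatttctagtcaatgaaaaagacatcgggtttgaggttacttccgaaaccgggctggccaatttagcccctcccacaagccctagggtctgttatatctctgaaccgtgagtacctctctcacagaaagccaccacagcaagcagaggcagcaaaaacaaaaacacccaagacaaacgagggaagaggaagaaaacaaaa
Nt5e: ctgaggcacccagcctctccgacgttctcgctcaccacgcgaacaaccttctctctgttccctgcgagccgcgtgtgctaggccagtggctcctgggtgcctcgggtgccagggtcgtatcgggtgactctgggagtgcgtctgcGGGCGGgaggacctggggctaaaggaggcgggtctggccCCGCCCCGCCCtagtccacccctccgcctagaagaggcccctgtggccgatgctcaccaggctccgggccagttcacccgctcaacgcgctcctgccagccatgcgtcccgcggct
Adora2b: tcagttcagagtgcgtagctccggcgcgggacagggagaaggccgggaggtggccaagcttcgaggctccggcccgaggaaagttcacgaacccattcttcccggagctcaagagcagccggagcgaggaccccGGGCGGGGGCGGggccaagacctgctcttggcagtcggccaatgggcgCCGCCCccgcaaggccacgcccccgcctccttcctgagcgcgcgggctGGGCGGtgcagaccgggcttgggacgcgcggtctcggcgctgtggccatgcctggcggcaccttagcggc
The Adora2b window held 4 matches, the Nt5e window 3 (2 of them overlapping) and the Entpd1 window none. In all, 5 of the 9 windows held GGGCGG (Adora2b, Nt5e, P2rx7, P2ry1 and P2ry2), against 33.1% of 33469 RefSeq windows of the same length. ACGTG, 1 form of the core read by hypoxia-inducible factors, was found on either strand in P2ry2 alone of the 9 windows and in 19.3% of all windows. The other form, GCGTG, was not searched for, and the Nt5e and Adora2b windows shown above hold it on at least 1 strand. The cyclic AMP response element TGACGTCA was found in 0 of the 9 and in 1.83% of all. A match is a description of the letters and does not show a site in use.

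Levels are log2 of the processed signal minus the array's 75th percentile, so a level of 0 is the 75th percentile of that array's probes, and the levels of different genes' probes are not compared. A gene was called where limma's adjusted p, over all 12894 genes, was under 0.05. All 9 members passed the filter of being well above background on every array of at least 1 group, P2rx7 only through IRI. Between 71.1% and 88.7% of an array's probes were well above background, with 73.3 ± 2.57% (SD, n = 4) in Yanglingquan and 80.0 to 84.7% on average in the other groups. Each group was scanned apart from all the others, and the acupoint groups on other days than IRI and sham, so scan and group cannot be told apart. The p-values measure the spread between the arrays of a group, each taken as 1 animal.

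**Figure D1:**
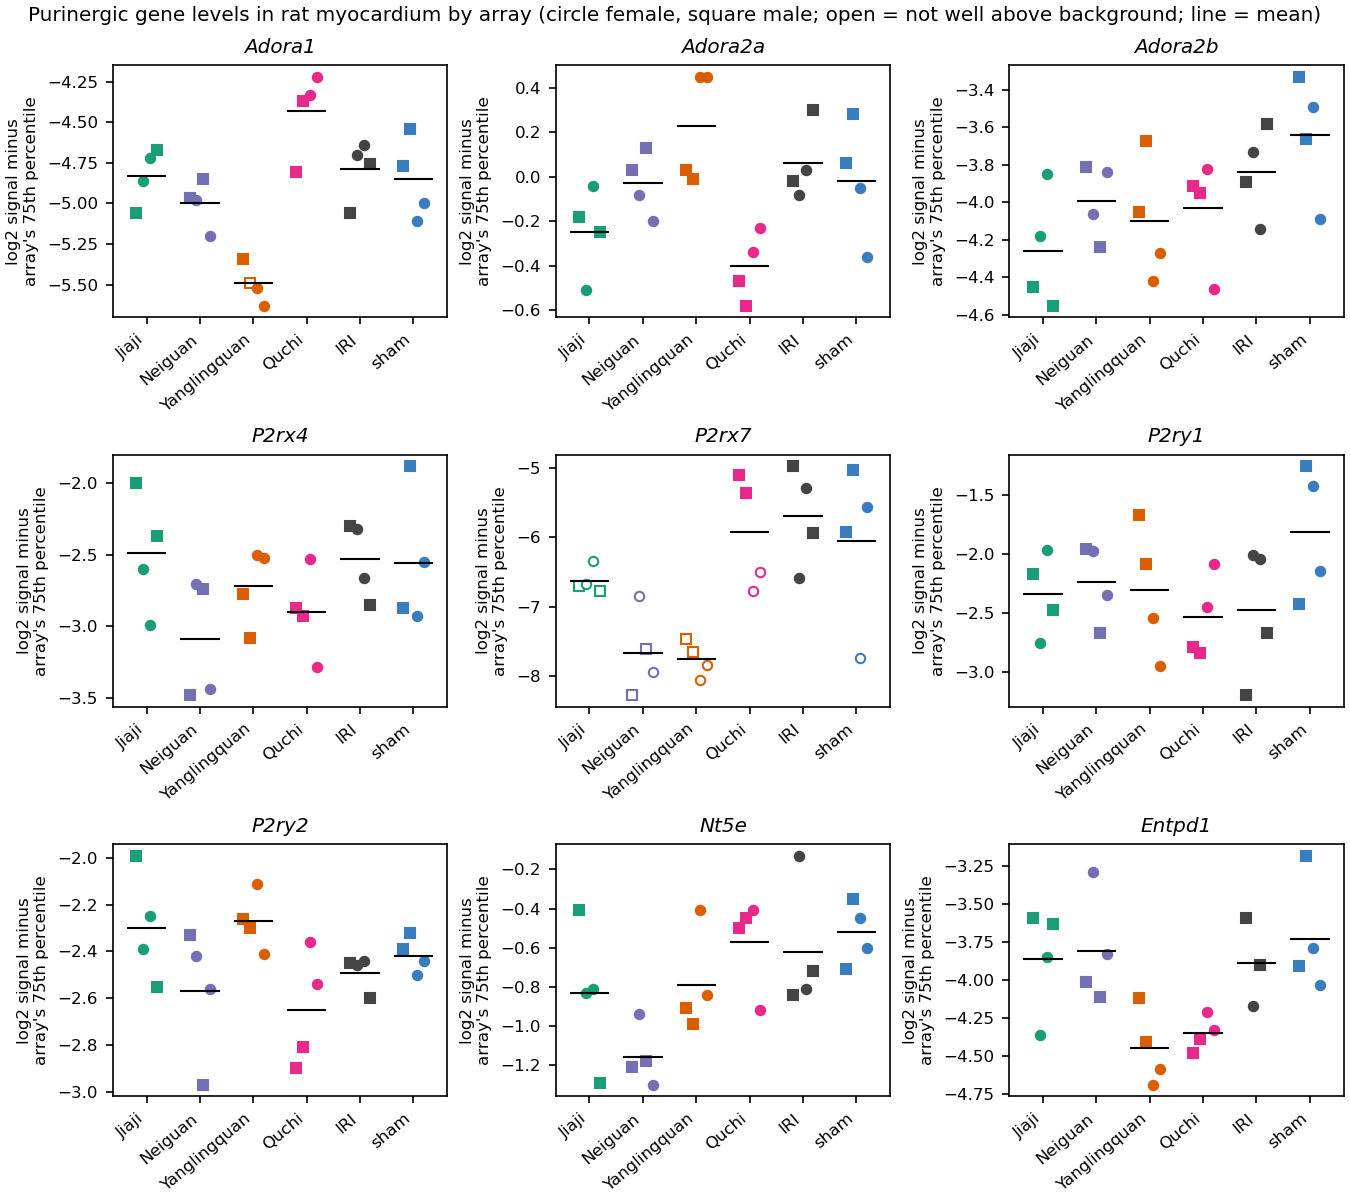
Levels of the 9 genes by array (y axis, log2 signal minus the array's 75th percentile) in the 6 groups (x axis). Circles are females, squares males, open symbols arrays where the probe was not well above background, and the line is the group mean. The P2rx7 panel shows all Neiguan and Yanglingquan arrays below all IRI arrays, the Adora1 panel all Yanglingquan arrays below every other array, and the Adora2a panel all Quchi arrays below all Yanglingquan arrays.

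The injury itself left these genes without a call. Between IRI and sham, 0 of the 9 members were called by limma, while 5.76% of all genes were, and 1 member had an unadjusted p under 0.05, against 17.8% of all genes. That gene was P2ry1, the ADP receptor known for platelet activation, with levels of -3.20, -2.01, -2.05 and -2.67 in IRI, against -2.43, -1.26, -1.43 and -2.15 in sham. The groups overlapped, and the difference was -0.67 ± 0.31 (SE; 95% interval -1.32 to -0.02; adjusted p = 0.264 by limma). The differences of the other 8 lay between -0.20 (Adora2b) and 0.36 (P2rx7), with intervals as narrow as -0.24 to 0.37 for Adora1 and as wide as -0.56 to 1.29 for P2rx7. The median over the 9 members was -0.07, beside -0.03 over all genes.

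Adora1 encodes the A1 receptor, which acts through inhibitory G proteins and is the adenosine receptor of nodal tissue and cardiomyocytes. Its level was -5.34, -5.49, -5.52 and -5.63 on the Yanglingquan arrays, against -5.06, -4.70, -4.64 and -4.76 in IRI and -4.77, -4.54, -5.11 and -5.00 in sham. Every Yanglingquan array lay below every array of IRI and sham, and 3 of the 4 were well above background. Over all genes, arrays did not overlap for 15.6% against IRI and for 2124 of 12894 against sham. Adora1 fell in Yanglingquan by 0.71 ± 0.15 (SE) on the log2 scale relative to IRI (limma adjusted p = 0.00385) and by 0.64 ± 0.15 relative to sham (adjusted p = 0.00772). The first of these calls ended with quantile normalization (-0.35, adjusted p = 0.115), with the authors' normalized values (-0.36, adjusted p = 0.101) and with normexp background correction (-0.09, adjusted p = 0.513). Adora1 belongs to the faintest of 4 equal classes of genes by mean level, in which the median difference of Yanglingquan against IRI was -0.37, with 637 of 3223 genes called lower and 67 higher, and after quantile normalization -0.05. The sham call ended with normexp only among the normalizations (-0.14, adjusted p = 0.23). Of 8 cardiomyocyte markers, 6 were called higher in Yanglingquan than in IRI and 5 than in sham, with a summed level of 1110 to 1670 in Yanglingquan, against 821 to 914 in IRI and 823 to 1060 in sham. Of all 12894 genes, 527 were called higher than in IRI and 749 than in sham. In the brightest class the median against IRI was 0.11, with 283 genes called higher and 66 lower, and 0.01 after quantile normalization. The part of these shifts and of the markers in the Adora1 result was not tested.

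On the Quchi arrays Adora1 stood on the other side, at -4.81, -4.37, -4.33 and -4.22. It rose in Quchi by 0.42 ± 0.15 relative to sham (limma adjusted p = 0.0454), with overlapping arrays, and differed from IRI by 0.36 ± 0.15 without a call (adjusted p = 0.191). The faintest class, to which Adora1 belongs, had a median of 0.24 in Quchi against sham, with 516 genes called higher and 197 lower. After quantile normalization that median was 0.02. The part of this shift in the Adora1 result was not tested. The call against sham ended in 12 of 20 alternatives, with differences of 0.04 to 0.56. Among them were quantile normalization (0.22, adjusted p = 0.241), omission of the filter (0.42, adjusted p = 0.0534) and the omission of sham replicate 1, 3 or 4 or Quchi replicate 2, 3 or 4 (adjusted p = 0.058 to 0.154). Without Quchi replicate 1, which was scanned by itself on a day of its own, the difference from IRI was 0.49 (adjusted p = 0.0482). Jiaji and Neiguan averaged -4.83 ± 0.18 and -5.00 ± 0.15 (SD, n = 4), with no call against IRI or sham. In Jiaji against sham the difference was 0.03, and with quantile normalization -0.45 (limma adjusted p = 0.016), so the direction of Adora1 there depends on the scaling.

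Adora2a encodes an adenosine receptor that acts through stimulatory G proteins on vessels and leukocytes. Its probe is printed as 10 spots, whose standard deviation within an array had a median of 0.04, and the spread between arrays of a group was 0.20. The levels were -0.47, -0.58, -0.34 and -0.23 in Quchi, against -0.02, -0.08, 0.03 and 0.30 in IRI, with no overlap. The difference of -0.46 ± 0.15 was not called after adjustment (limma adjusted p = 0.0964), and against sham it was -0.38 ± 0.15 (adjusted p = 0.0735). The highest levels were those of Yanglingquan, at 0.03, -0.01, 0.45 and 0.45, with the 2 females above the 2 males. Neither Yanglingquan (0.17), Neiguan (-0.09) nor Jiaji (-0.30) was called against IRI. The endothelial markers, of which 4 of 6 were tested, had a summed level of 34.2 to 43.2 in Quchi, against 41.4 to 53.8 in IRI, in units of each array's 75th percentile, and Tie1 was the one of them called lower. Their part in the Adora2a difference was not tested.

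Adora2b encodes the A2B receptor, a low-affinity receptor that acts when adenosine is abundant. It was called in 1 comparison: it fell by 0.62 ± 0.20 in Jiaji relative to sham (limma adjusted p = 0.028). The levels were -4.45, -4.18, -3.85 and -4.55 in Jiaji, against -3.33, -3.66, -3.49 and -4.09 in sham, and the highest Jiaji array lay above the lowest sham array. The call ended without sham replicate 1 or 3 or Jiaji replicate 1 or 4 (adjusted p = 0.0879 to 0.0963) and in a fit of Jiaji and sham alone (adjusted p = 0.0775). Against IRI, the Jiaji difference was -0.42 ± 0.20 (adjusted p = 0.206), and it was called with quantile normalization (-0.73, adjusted p = 0.0459), median scaling (-0.63, adjusted p = 0.0488) and the authors' normalized values (-0.72, adjusted p = 0.0464). All 4 acupoint means lay below the IRI mean of -3.84 ± 0.24, at -4.26 in Jiaji, -3.99 in Neiguan, -4.10 in Yanglingquan and -4.03 in Quchi (SD, n = 4).

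P2rx7 encodes the channel that opens at high extracellular ATP and is known in macrophages for triggering the NLRP3 inflammasome and the release of interleukin-1 beta. Its signal was faint, at the 0.357th percentile of the tested genes by mean level. Its levels were -8.27, -6.84, -7.61 and -7.94 in Neiguan and -7.46, -7.65, -8.05 and -7.83 in Yanglingquan, against -4.98, -6.58, -5.29 and -5.94 in IRI. Neither acupoint group overlapped with IRI, and the probe was not well above background on any array of either. P2rx7 therefore has only a bound there. Set against the IRI mean of -5.70, it was at least 1.32-fold lower in Neiguan (mean -7.66) and 1.04-fold lower in Yanglingquan (mean -7.75). The bound was not tested and has no standard error. Limma called the differences between the values as measured (adjusted p = 0.00907 in Neiguan and 0.00503 in Yanglingquan). The bound sets the IRI mean against, on each array of the dim group, the lowest signal of any probe well above background or the probe's own, whichever is higher. That level averaged -6.1 in Neiguan and -5.76 in Yanglingquan. IRI replicate 2, at -6.58, lay below both, and IRI replicate 4, at -5.94, below the second. P2rx7 entered the test only through IRI, where its mean was highest. Without any filter it was called as well (limma adjusted p = 0.0125 in Neiguan and 0.00692 in Yanglingquan). Those calls use the same values at background, so they add no separate support. In Jiaji the levels were -6.70, -6.68, -6.34 and -6.78, the probe was not well above background on any array, and the difference from IRI was not called (bound 1.45-fold, limma adjusted p = 0.213).

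On the Quchi arrays P2rx7 stood at -5.11 and -5.36 in the 2 males and at -6.77 and -6.50 in the 2 females, and only the males' arrays were well above background. The difference from IRI was -0.24 ± 0.45 (limma adjusted p = 0.823, interval -1.16 to 0.69). Sham spread most widely, at -5.92, -5.04, -7.73 and -5.56, with replicate 3 not well above background. Relative to sham limma called P2rx7 lower in Neiguan (adjusted p = 0.0152) and in Yanglingquan (adjusted p = 0.0173), on the values as measured. The bound, which was not tested, was 1.03-fold in Neiguan and gives no fold in Yanglingquan. Both calls against sham ended without sham replicate 2 (adjusted p = 0.0635 in Neiguan and 0.078 in Yanglingquan) or sham replicate 4 (adjusted p = 0.0542 and 0.0586), and that of Neiguan also without Neiguan replicate 1 (adjusted p = 0.0682). The Yanglingquan call against sham further ended with quantile normalization (-1.28, adjusted p = 0.06), normexp (-0.30, adjusted p = 0.0592) and the authors' normalized values (-0.76, adjusted p = 0.19). In fits of the compared groups alone neither was called (adjusted p = 0.0813 in Neiguan and 0.0651 in Yanglingquan).

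The P2rx7 probe is also printed as 10 spots, and here their standard deviation had a median of 0.36, with a spread of 0.71 between arrays of a group. Of 40 spots per group, 1 was well above background in Neiguan, 1 in Yanglingquan, 8 in Jiaji and 21 in Quchi, against 31 in IRI and 30 in sham. Before background correction the probe's mean spot signal was 67.2 to 81.0 in Neiguan and 53.7 to 63.0 in Yanglingquan, against 72.0 to 103 in IRI, over local backgrounds of 27.0 to 28.4, 23.6 to 26.2 and 25.4 to 39.8. So the ranges of Neiguan and IRI overlapped before correction. IRI replicates 2 and 4 had 5 and 6 of their 10 spots well above background. When more than 0.5 of the spots was required, a setting chosen after seeing the data, P2rx7 was not tested.

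**Figure D2:**
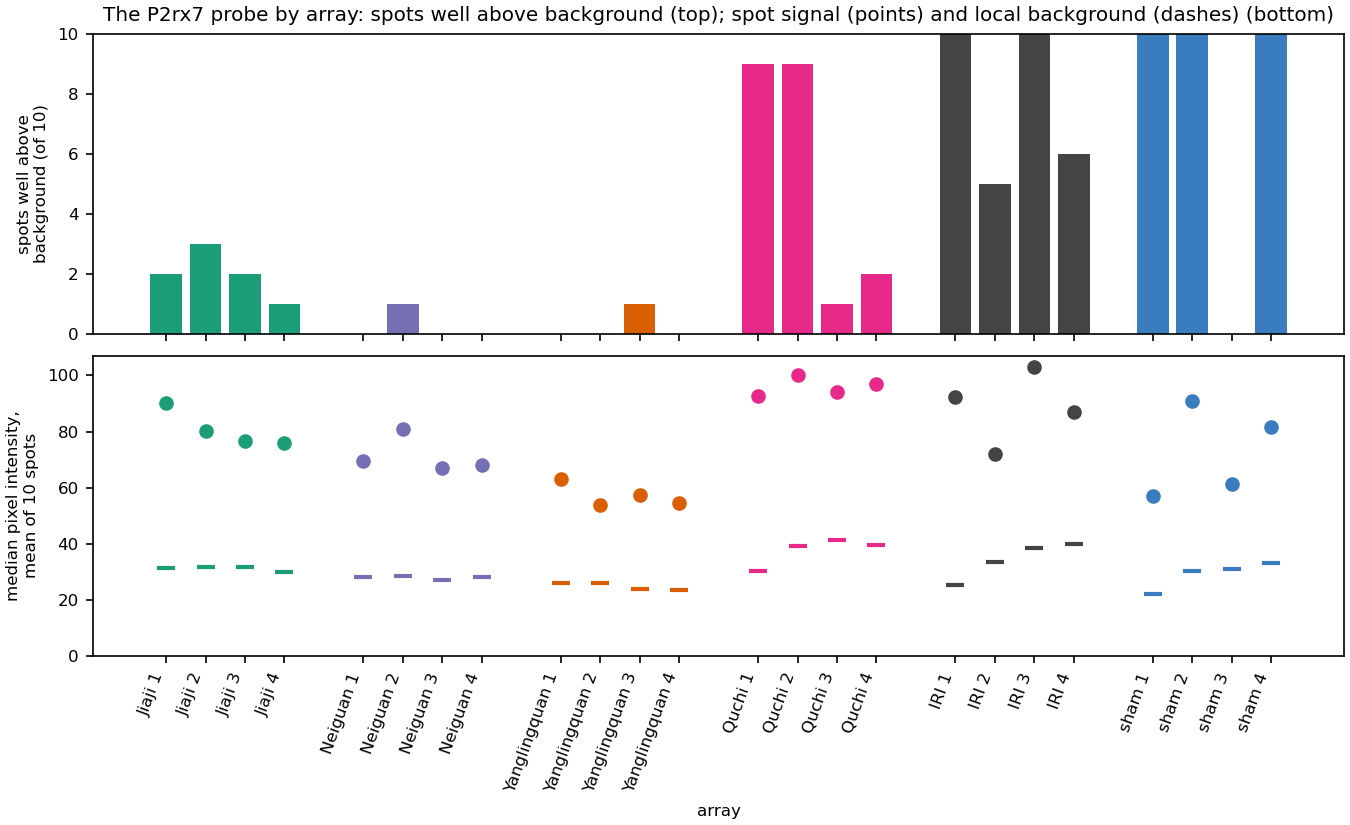
The P2rx7 probe on each of the 24 arrays (x axis). The upper bars count the spots well above background out of 10, and below, points give the median pixel intensity averaged over the 10 spots and dashes the local background; IRI and sham hold 31 and 30 such spots of 40, Neiguan and Yanglingquan 1 each.

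The P2rx7 results depended on how faint signals were treated. With normexp correction the difference from IRI was -0.31 in Neiguan (limma adjusted p = 0.0696) and -0.32 in Yanglingquan (adjusted p = 0.0574), against fitted values of -1.97 ± 0.45 and -2.05 ± 0.45 as reported. The Yanglingquan call also ended with quantile normalization (-1.38, adjusted p = 0.057) and with the authors' normalized values (-0.94, adjusted p = 0.132), while the Neiguan call held in both (-1.72 and -1.55). Without Neiguan replicate 1 the Neiguan difference was -1.67 (adjusted p = 0.0503). Of 6 macrophage markers, Csf1r alone was called, higher, in Neiguan against IRI, and none in Yanglingquan. The summed level of the 6 was 3.91 to 5.04 in Neiguan and 2.40 to 3.26 in Yanglingquan, against 2.38 to 4.92 in IRI. Of 5 mast cell markers, 1 was called lower in Neiguan (Mcpt1) and 2 in Yanglingquan (Mcpt1 and Ms4a2); their part in the result was not tested.

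P2rx4, an ATP-gated channel that sits next to P2rx7 on chromosome 12 and is found in cardiomyocytes, macrophages and endothelium, was called in 0 of the 9 comparisons. Its levels were -3.48, -2.70, -2.74 and -3.44 in Neiguan, against -2.30, -2.32, -2.66 and -2.85 in IRI. The Neiguan arrays split into 1 pair inside the IRI range and 1 pair below it, and the difference was -0.56 ± 0.25 (limma adjusted p = 0.226). Its other differences from IRI lay between -0.37 in Quchi and 0.04 in Jiaji.

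Neither G protein-coupled nucleotide receptor was called in any of the 9 comparisons. P2ry1 differed from IRI by 0.24 ± 0.31 in Neiguan, 0.17 ± 0.31 in Yanglingquan, 0.14 ± 0.31 in Jiaji and -0.06 ± 0.31 in Quchi, none called. The 95% intervals of these 4 differences reached from -0.71 to 0.89. Against sham its value was negative in all 4 acupoint groups as in IRI, between -0.73 (Quchi, limma adjusted p = 0.102) and -0.42 (Neiguan, adjusted p = 0.339); these comparisons share the sham arrays. P2ry2, the receptor for ATP and UTP, had standard deviations within groups of 0.07 (IRI) to 0.28 (Neiguan). It differed from IRI by 0.21 ± 0.14 in Yanglingquan, whose arrays (-2.26, -2.30, -2.11 and -2.41) lay above all IRI arrays (-2.45, -2.46, -2.44 and -2.60), and was not called (adjusted p = 0.361). The F tests described below did not call P2ry2 (adjusted p = 0.0665 among acupoints and 0.137 over 6 groups), but 5 of 12 other settings did in each.

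Nt5e, the enzyme that makes extracellular adenosine from AMP, was lowest in Neiguan, at -1.21, -0.94, -1.18 and -1.30, against -0.84, -0.13, -0.81 and -0.72 in IRI and -0.71, -0.35, -0.45 and -0.60 in sham. All Neiguan arrays lay below all arrays of IRI and sham. Over all genes, arrays did not overlap for 15.3% against IRI and for 3498 of 12894 against sham. Nt5e fell in Neiguan by 0.63 ± 0.18 relative to sham (limma adjusted p = 0.0193), while the difference of -0.54 ± 0.18 from IRI was not called (adjusted p = 0.0994). The sham call held in all normalizations tried and ended without sham replicate 2 (-0.56, adjusted p = 0.0675), sham replicate 3 (-0.62, adjusted p = 0.0507) or Neiguan replicate 4 (-0.57, adjusted p = 0.069). With median scaling and with normexp the difference from IRI was called too (-0.61, adjusted p = 0.0472, and -0.54, adjusted p = 0.0482). Differences from IRI were -0.21 in Jiaji, -0.17 in Yanglingquan and 0.06 in Quchi. Of 6 fibroblast markers none was called in Neiguan against IRI, and Lum was called lower against sham. Their summed level was 55.4 to 88.5 in Neiguan, against 56.6 to 118 in IRI and 63.4 to 91.5 in sham, and their part in the Nt5e result was not tested.

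Entpd1, the enzyme that clears ATP and ADP, was low in Yanglingquan and Quchi. Its levels were -4.12, -4.41, -4.69 and -4.59 in Yanglingquan and -4.48, -4.39, -4.21 and -4.33 in Quchi, against -3.91, -3.18, -3.79 and -4.03 in sham. Both groups lay wholly below sham. Of all 12894 genes, 2124 did not overlap between Yanglingquan and sham, and 2699 between Quchi and sham. Entpd1 fell by 0.72 ± 0.21 in Yanglingquan (limma adjusted p = 0.0265) and by 0.62 ± 0.21 in Quchi (adjusted p = 0.0368) relative to sham. IRI had 3 usable arrays, at -3.59, -4.17 and -3.90, since the spot of replicate 3 was an outlier and was left out of the fit. Against IRI the differences were -0.54 ± 0.22 (adjusted p = 0.128) and -0.44 ± 0.22 (adjusted p = 0.295), not called. The Yanglingquan call against sham ended without sham replicate 2 or 3 or Yanglingquan replicate 2, 3 or 4 (adjusted p = 0.0587 to 0.115), with the authors' normalized values, with normexp and in a fit of both groups alone (adjusted p = 0.0527). The Quchi call ended without sham replicate 2 or 3 or Quchi replicate 1, 2 or 4 (adjusted p = 0.0514 to 0.138) and in a fit of both groups alone (adjusted p = 0.0653). Jiaji and Neiguan averaged -3.86 ± 0.35 and -3.81 ± 0.36 (SD, n = 4) and differed from IRI by 0.06 and 0.11. Entpd1 was called lower in Jiaji against sham with quantile normalization (-0.51, limma adjusted p = 0.0404) and with normexp (-0.3, adjusted p = 0.0461). With the authors' values it was called lower in Quchi against IRI (-0.83, limma adjusted p = 0.0391). In Quchi against sham, the endothelial marker Tie1 and the fibroblast marker Pdgfra were called lower and the macrophage marker Csf1r higher, with endothelial sums of 34.2 to 43.2 in Quchi, against 41.7 to 53.4 in sham. In Yanglingquan against sham, Mrc1 of the macrophage, Col1a1 of the fibroblast and Fcer1a and Ms4a2 of the mast cell markers were called lower, with endothelial sums of 41.1 to 56.1 in Yanglingquan. Of the neutrophil and cardiomyocyte markers, 2 and 5 were called higher in Yanglingquan than in sham, and 3 and 1 in Quchi. Entpd1 also belongs to the faintest of 4 equal classes of genes by mean level. The median of that class was -0.30 in Yanglingquan against sham, with 504 of 3223 genes called lower and 110 higher. In Quchi against sham it was 0.24, with 197 called lower and 516 higher. The part of the markers and of these shifts in the Entpd1 result was not tested.

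**Figure D3:**
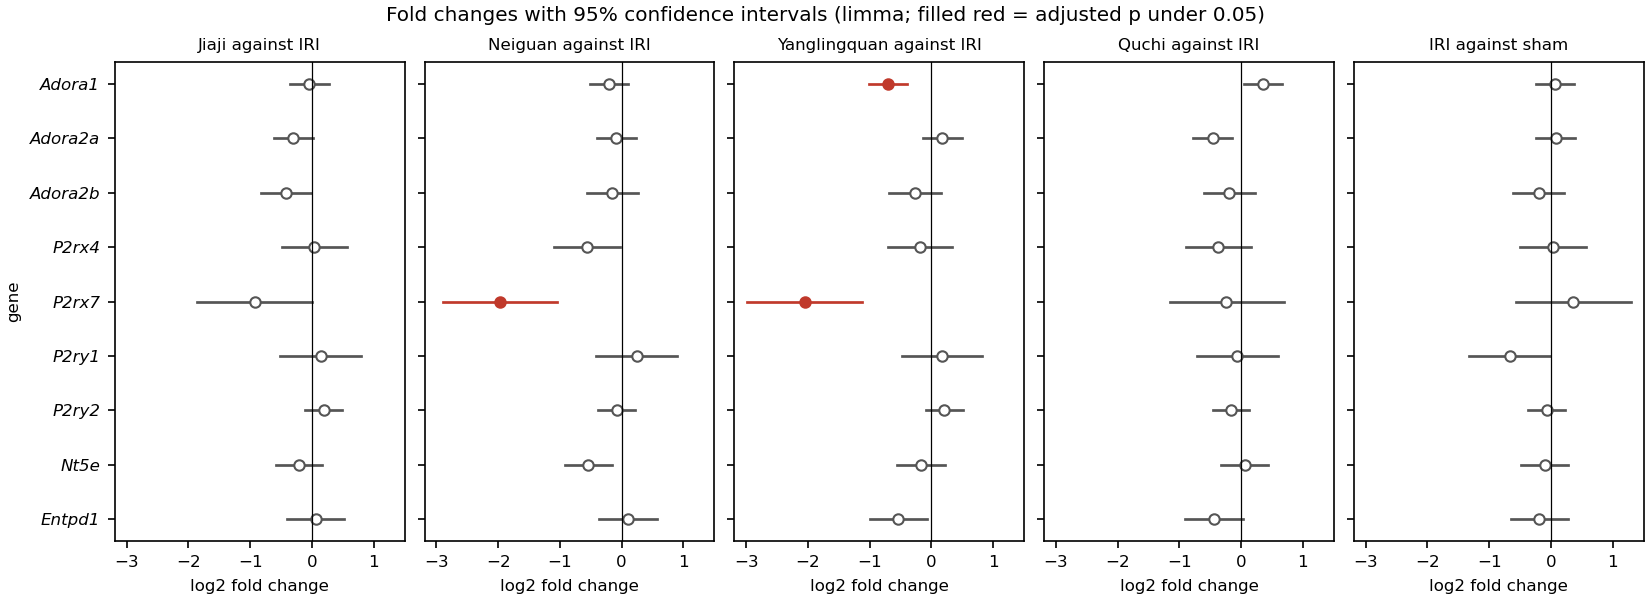
Log2 fold changes (x axis) of the 9 genes (y axis) for each acupoint group against IRI and for IRI against sham; points are limma estimates, bars their 95% confidence intervals, and filled red symbols are called. Red symbols appear for P2rx7 in Neiguan (-1.97) and Yanglingquan (-2.05) and for Adora1 in Yanglingquan (-0.71), and the P2rx7 intervals are the widest.

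Counted by comparison, acupuncture groups had 0 to 2 of the 9 members called against IRI. Limma called 0 in Jiaji, where 10.2% of all genes were called, with 2 at an unadjusted p under 0.05 (23.5% of all genes). It called 1 in Neiguan (P2rx7, lower; 5.64% of all genes called, 1.23% lower), 2 in Yanglingquan (both lower, P2rx7 being 1 of them; 12.1% of all genes called, 8.03% lower) and 0 in Quchi, where 3.44% of all genes were called and 2 members had an unadjusted p under 0.05 (19% of all genes). P2rx7 passed the filter only through IRI, and its values in Neiguan and Yanglingquan were at background. Against sham, 1 was called in Jiaji (24% of all genes), 2 in Neiguan (19.9%), 3 in Yanglingquan (13%) and 2 in Quchi (21.1%). Of these 8 calls 7 were lower and 1, Adora1 in Quchi, higher. Of all genes 6.55% were called lower in Jiaji, 7.39% in Neiguan, 7.22% in Yanglingquan and 9.26% in Quchi, where 11.8% were called higher. All 9 members had negative values in Neiguan against sham, with a median of -0.35, beside -0.10 over all genes, of which 7814 of 12894 were negative. Adora2a, at -0.01, ranged from -0.15 to 0.09 over 21 alternatives. The 8 comparisons with acupoint groups share the IRI or the sham arrays and are not independent of each other. Groups did not overlap for 2 members in Neiguan against IRI (15.3% of all genes), 3 in Yanglingquan (15.6%) and 2 in Quchi (9.21%). Against sham this held for 0 members in Jiaji (3417 of 12894 genes) and 1 in Neiguan (3498). It held for 2 in Yanglingquan (2124) and 1 in Quchi (2699).

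The acupoints were also compared among themselves. An F test of limma over the 4 acupoint groups, without IRI or sham in the contrast, called 4 of the 9 members, against 39% of all genes. These were Adora1 (adjusted p = 0.000241 by limma), P2rx7 (adjusted p = 0.00753), Adora2a (adjusted p = 0.0122) and Entpd1 (adjusted p = 0.0271). The same 4 were called over all 6 groups, where 45.8% of all genes were, with adjusted p of 0.000401, 0.00184, 0.0204 and 0.022. The shares are close to those of all genes. For P2rx7 the acupoint test set Quchi, with 2 arrays well above background, beside 3 groups with none. Adora2a was called among acupoints in every one of the 12 other settings and without each array in turn (adjusted p up to 0.0403), though over 6 groups it was not called without Quchi replicate 2 (adjusted p = 0.0596). P2rx7 was not called among acupoints with quantile normalization (adjusted p = 0.0781) or normexp (adjusted p = 0.123), nor Adora1 with normexp (adjusted p = 0.13). Entpd1 was not called with quantile normalization, median scaling, normexp or the authors' values, the highest adjusted p being 0.351, nor without Yanglingquan replicate 3 or 4 or Quchi replicate 2 (adjusted p = 0.0502 to 0.0547).

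Ranked by group mean, the order was not shared between the genes. Adora1 ran from Quchi through IRI, Jiaji, sham and Neiguan to Yanglingquan, over 1.06 on the log2 scale. Adora2a ran from Yanglingquan through IRI, sham, Neiguan and Jiaji to Quchi, over 0.63. With this scaling Quchi and Yanglingquan were the extremes of both receptors in opposite order. The low end of Adora1 depends on the scaling. Relative to sham, Adora1 was -0.45 in Jiaji and -0.42 in Yanglingquan with quantile normalization, and -0.45 and -0.43 with the authors' values. P2rx7 had means of -5.70 in IRI, -5.93 in Quchi and -6.06 in sham, and Jiaji, Neiguan and Yanglingquan have no order in it since the probe was not well above background on any of their arrays. Sham had the highest mean of Adora2b, P2ry1, Nt5e and Entpd1. Leaving out pairs of groups that were both at background, 5 of 43 neighbouring pairs of means differed by more than the gene's spread within groups. These were Quchi over IRI and Neiguan over Yanglingquan in Adora1, Neiguan over Jiaji in Adora2a, Jiaji over Neiguan in Nt5e and IRI over Quchi in Entpd1. The arrays did not overlap in 2 of the 43, namely Neiguan over Yanglingquan in Adora1 and IRI over Quchi in Entpd1. The Entpd1 pair has only 3 usable IRI arrays. Apart from the 5, neighbours lay within that spread. Neither count was taken over all genes, so neither can be read as a trait of these genes.

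Females and males were not told apart by these genes. Limma called 0 of the 9 between the sexes, with 0 at an unadjusted p under 0.05, while of all genes 0.209% were called and 12.5% had an unadjusted p under 0.05. The largest difference was that of P2rx7, at -0.44 ± 0.26 for female minus male (adjusted p = 0.502). No member had a called difference between the sexes in any comparison of groups. Of all genes 0 were called in Jiaji against sham and 2 in Quchi against sham, so this is no trait of the members. Counts over all genes for the other comparisons are not given here. The largest such difference of a member was that of P2ry1 in Yanglingquan against IRI (-1.78, female minus male, limma adjusted p = 0.407). The lowest adjusted p was that of Adora2a in Yanglingquan against sham (0.82, adjusted p = 0.188). P2ry1 stood at -1.67 and -2.09 in the 2 Yanglingquan males and -2.55 and -2.95 in the 2 Yanglingquan females.

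Of 45 other genes of purine release, breakdown, transport and signalling, 37 were tested. Between IRI and sham limma called 4 of them (5.76% of all genes), all higher in IRI: Slc29a3, an equilibrative nucleoside transporter of endosomes and lysosomes (1.1 ± 0.20, adjusted p = 0.00212), P2ry4, a receptor for UTP (1.09 ± 0.19, adjusted p = 0.0016), Slc28a1, a concentrative transporter of pyrimidine nucleosides and adenosine (0.90 ± 0.22, adjusted p = 0.0184), and Slc17a9, the vesicular ATP transporter (0.49 ± 0.12, adjusted p = 0.0213). Levels of Slc29a3 averaged -1.85 in IRI and -2.95 in sham, and it was also higher in all 4 acupoint groups than in sham, by 0.68 to 1.39 (adjusted p = 0.0303 or less). With quantile normalization Slc17a9 was not called between IRI and sham (0.40, adjusted p = 0.0837). The median over the 37 was -0.08, beside -0.03 over all genes.

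Against IRI, limma called 2 of the 37 in Jiaji (10.2% of all genes): Alpl, alkaline phosphatase, which can also dephosphorylate AMP, fell by 0.58 ± 0.16 (limma adjusted p = 0.0239), and Slc17a9 rose by 0.50 ± 0.12 (adjusted p = 0.0107; not called with quantile normalization, adjusted p = 0.238). In Neiguan 0 of the 37 were called by limma (5.64% of all genes), with 4 at an unadjusted p under 0.05 (19.7% of all genes). In Quchi 0 were called (3.44%), with 5 at an unadjusted p under 0.05 (19%). In Yanglingquan 4 were called (12.1% of all genes). The ATP-gated channel gene P2rx1 fell by 0.89 ± 0.27 (adjusted p = 0.0345) and P2ry4 by 0.78 ± 0.19 (adjusted p = 0.0113). Entpd3, a relative of Entpd1, was lower (adjusted p = 0.0072) and not well above background on any Yanglingquan array. Gnas, the stimulatory G protein subunit used by the receptors of Adora2a and Adora2b, was higher by 0.75 ± 0.15 (adjusted p = 0.00287), though its other probe stood at -0.08. None of these 4 was called with quantile normalization, where the adjusted p lay between 0.132 and 0.272.

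The tested genes outside the purine lists whose levels followed a called member most closely over the arrays were found as a description, and arrays of a group share their scan. Nt5e was followed by Rbbp7 (Pearson r = 0.94), Zfp846 and Pdss2 (both r = 0.91) over 24 arrays. Adora1 was followed by Prokr1 (r = 0.91) and Nipsnap3a (r = 0.90), the second of which was well above background on 11 arrays. Entpd1 was followed by Rell1 (r = 0.88), Ngfr and Hsd3b7 (both r = 0.87) over 23 arrays. Adora2b was followed by Mrpl51 (r = 0.81), Smim5 and Hspa14 (both r = 0.75), and P2rx7 by Aldh1l2, Rfc2 and Spns3 (each r = 0.80).

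**Figure D4:**
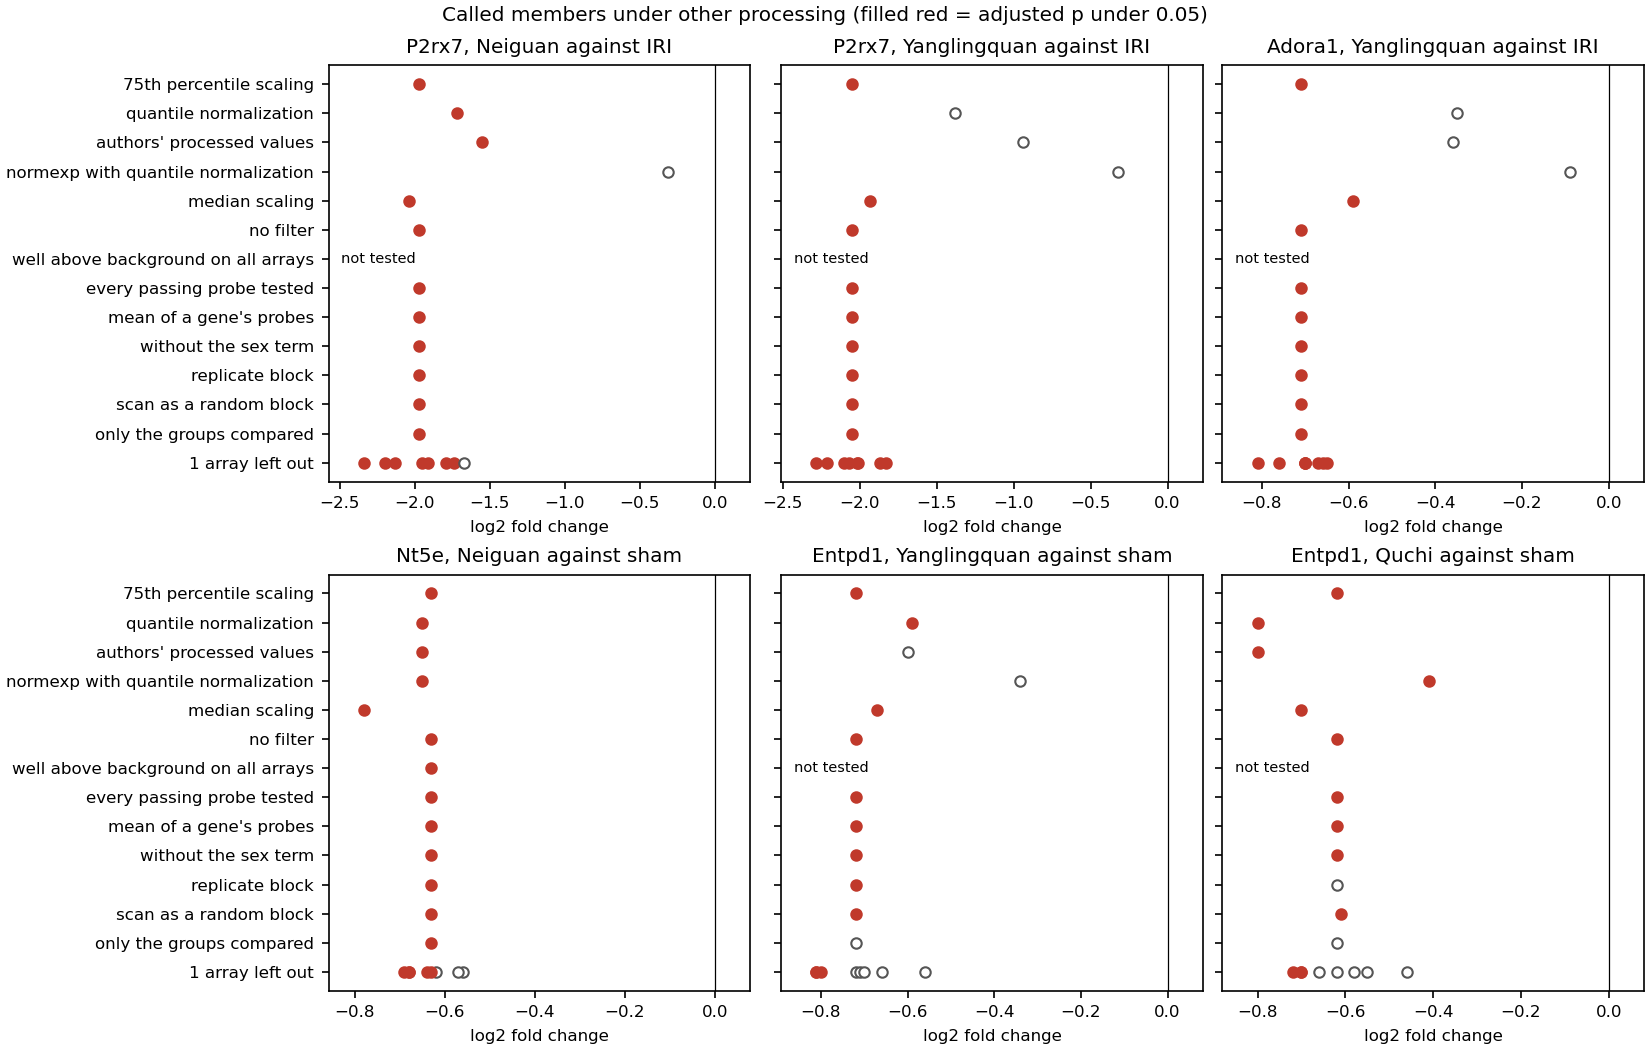
Log2 fold change (x axis) of 6 called differences under each processing setting (y axis); filled red symbols are called and open ones are not, and the lowest row has 1 symbol per array left out. Nt5e in Neiguan keeps a value between -0.78 and -0.63 in all normalizations, while the P2rx7 and Adora1 differences shrink to -0.31, -0.32 and -0.09 with normexp.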

How the data were processed

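The scanner files hold Cy3 spot intensity values, which Feature Extraction 11.0.1.1 background-subtracted and spatially detrended per the file headers, where the version in the submitters' processing notes is 10.7.3.1. A deposited table of log2 values for the same arrays served as an alternative; each column has a median near 7.21 and followed the array's log2 signal at r = 0.997 or more, so these values were taken as normalized by the authors, with no gene centring and the tool not given in the sources used here. Other columns used are flags, 0 or 1, per the file headers.

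Control spots (1377 per array) and 8733 outlier spots over all arrays were left out, and spots of a probe were averaged. A probe with several spots counted as well above background where at least 0.5 of them were. Of 30367 probes, 18005 (59.3%) were named through RefSeq transcripts and 25149 passed the filter. Each gene was represented by its brightest passing probe. Group and sex were fitted over 24 arrays in R 4.3.3 with limma 3.58.1 (lmFit, eBayes, 17 residual degrees of freedom, two-sided, Benjamini-Hochberg). On simulated data for Neiguan against IRI, with 200 of 12894 genes changed, 7.5% were recovered at a log2 change of 0.5, 76.5% at 1 and 95.5% at 2. Other settings were quantile, median and normexp (offset 50, on the median spot signal) processing, the authors' values, other filters and probe rules, blocks, fits of the compared groups alone and omission of each array. The number of arrays limits the precision. The members and lists were chosen with earlier results of these data known. The genes named are the members, the other purine genes called in a comparison, and the 3 genes most like each called member, 1 of which is not reported here.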

Additional observations from a re-analysis of the deposited data

Results flagged for a closer look

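In 2 of 53 sets of 4 arrays examined, 1 array stood apart from the other 3 by more than Dixon's 95% limit, which chance would give in about 1 in 20 sets. P2ry2 in IRI replicate 4 stood at -2.60, with the other IRI arrays between -2.46 and -2.44. Nt5e in IRI replicate 2 stood at -0.13, with the other IRI arrays between -0.84 and -0.72. The highest of those other 3 IRI arrays, at -0.72, lay just below the lowest sham array, at -0.71, and replicate 2 lay above all sham arrays. With any 1 array left out, the difference of IRI from sham lay between -0.26 and -0.02 (limma adjusted p = 0.563 or more).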

How the results depend on the processing

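Of 1665 member values under alternatives, 1583 kept their direction and side of the threshold or, without a call on either side, turned sign at most (84 values); 54 lost a call, 26 gained one and 2 reversed: Adora1 in Jiaji against sham was 0.03 as reported, -0.45 with quantile normalization and -0.45 with the authors' values. The cause of these changes was not tested. Counts of called members are given next beside those reported, which were 0 in Jiaji, 1 in Neiguan, 2 in Yanglingquan and 0 in Quchi against IRI, 1, 2, 3 and 2 against sham in that order of acupoints, and 4 in each F test. With quantile normalization the count was 1 in Jiaji and 0 in Yanglingquan against IRI, 3 in Jiaji and 1 in Quchi against sham, and 7 over 6 groups. Of all 12894 genes, limma then called 1377, 853, 3735, 2913 and 5900, in the same order. With median scaling, which moved the median of all genes by up to -0.36 (Jiaji against sham), it was 2 in Jiaji and 2 in Neiguan against IRI, 4 in Jiaji against sham and 7 over 6 groups. The genes called of all 12894 were 2371, 811, 6864 and 8721, in the same order. With normexp it was 0 in Yanglingquan against IRI (715 of all 12894 genes), 2 in Jiaji against sham (3563) and 0 in Yanglingquan against sham (1204). With the authors' values it was 1 in Jiaji, 0 in Yanglingquan and 1 in Quchi against IRI, 2 in Jiaji, 1 in Yanglingquan and 1 in Quchi against sham, and 7 over 6 groups. In that order 1380, 858, 656, 3730, 1410, 2912 and 5792 of all 12894 genes were called. Without a filter it was 1 in Quchi against sham (2715 of all 15168 genes). With probes well above background on all arrays, which left P2rx7, Adora1 and Entpd1 untested, it was 0 in Neiguan and 0 in Yanglingquan against IRI, 1 in Neiguan, 0 in Yanglingquan and 0 in Quchi against sham, 2 over 6 groups and 1 over the acupoints. Of all 10717 genes then tested, limma called 583, 860, 2278, 1162, 2480, 4705 and 3942, in the same order. With more than 0.5 of a probe's spots required, which left P2rx7 untested, it was 0 in Neiguan and 1 in Yanglingquan against IRI and 1 in Neiguan against sham. Of all 12891 genes then tested, 726, 1560 and 2565 were called, in the same order. With scan as a random block (correlation -0.0998) it was 2 in Neiguan and 1 in Quchi against IRI, 4 in Quchi against sham and 7 over 6 groups. All genes called there were 1804, 1324, 4293 and 8907 of 12894, in the same order. Each group was scanned apart, so this block cannot remove a scan effect. With the negative correlation the standard errors narrowed, as for P2rx7 in Neiguan against IRI from 0.45 to 0.36. Calls gained with it are therefore less cautious than those reported. It is 1 of the 12 other settings of the F tests. Fitting the compared groups alone gave 0 in Jiaji (2638 of all 12894 genes), 1 in Neiguan (2576), 1 in Yanglingquan (788) and 0 in Quchi (1789) against sham. Counts not named for a setting were within 1.5 times those reported, though not always equal to them.

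Leaving out each array in turn gave 0 to 1 called in Neiguan (456 to 673 of all 12894 genes) and 0 to 1 in Quchi (122 to 695) against IRI. It gave 2 throughout in Yanglingquan (1072 to 1360) and 0 in Jiaji (861 to 1248). Against sham it gave 0 to 1 in Jiaji (2271 to 3098 of all genes) and 0 to 2 in Neiguan (1657 to 2737). It gave 1 to 3 in Yanglingquan (837 to 1596) and 0 to 2 in Quchi (1563 to 2924) against sham. The F tests gave 3 to 6 among the acupoints (3904 to 5476 of all genes) and 3 to 5 over 6 groups (4809 to 6224). These omissions for the F tests and the sexes were chosen after seeing the data.

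Samples of different groups share replicate numbers, but of 60 correlations between same-numbered arrays 17 were above 0.1 (range -0.401 to 0.442, median -0.0182), so the numbers were not taken to pair the rats. With the number as a replicate block the count in Quchi against sham was 1 (2708 of all 12894 genes). Entpd1 stood at -0.62 there (limma adjusted p = 0.0561). Over 6 groups 5 members were called (5872 of all genes). Every other count of member calls was as reported. Signal over background limits P2rx7, and 4 arrays a group limit every comparison.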
